A study of Mus musculus with 52 samples.

Results

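Macrophages are phagocytes of the myeloid lineage that engulf debris and dying cells, present antigen and release complement and cytokines. Their survival depends on signalling through the receptor Csf1r, and their gene programme on transcription factors such as PU.1, encoded by Spi1. In bone they share a precursor with osteoclasts, the cells that resorb mineralised matrix, and in osteosarcoma they are a common immune cell of the tumour.

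Primary mouse osteosarcomas were ranked and selected on the RNA level of 5 macrophage genes, and the 10 highest tumours, called macrophage-rich here, were compared with the 10 lowest, called macrophage-poor, out of 52 libraries in the series. The 5 genes were Adgre1 (the surface marker F4/80), Mrc1 (the mannose receptor CD206), C1qa and C1qb (chains of complement component C1q) and Cd163 (the haemoglobin scavenger receptor). The score was the mean of log2(CPM + 1) over these genes, with CPM (counts scaled to a common library total) taken on the total count of a library. Ranking used the 34 libraries whose column names lack the prefix R1002-, less 3 with Col1a1, the main collagen gene of osteoblastic cells, under 13 log2 CPM. This left 31 tumours, of which 11 lay between the groups.

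Every tumour came from 1 of 3 genotypes, each with at least 1 conditional p53 allele. The p53R172H/fl and p53R245W/fl groups combined that allele with the missense allele in their name, and the p53fl/fl group had the conditional allele on both chromosomes. The macrophage-rich tumours were 3 p53R172H/fl, 2 p53R245W/fl and 5 p53fl/fl, and the macrophage-poor tumours were 4 p53R172H/fl, 4 p53R245W/fl and 2 p53fl/fl, so genotype was a term in every fit except where stated. Age, the driver of recombination and the part of the tumour sampled were not stated in the labels. RNA came from whole frozen tumour pieces, in which a lower level of a gene can mean fewer cells of a type or less RNA per cell, and these cannot be told apart.

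The values that chose the tumours are given as a description only. The score spanned 6.81 to 8.02 with a median of 7.02 in macrophage-rich tumours and 4.03 to 6.06 with a median of 5.81 in macrophage-poor tumours. Tumour 627, the last to enter the macrophage-rich group, had a score of 6.81, and tumour 1241, just outside it, had 6.65. Tumour 1832, the last to enter the macrophage-poor group, had 6.06, and tumour 1431, just outside it, had 6.10. Neither limit was the widest step of the ranking, as tumours 1522 and 865, both macrophage-rich, had 8.02 and 7.65. The groups are thus the ends of a range and not separate classes. Of the 5 genes, C1qa had a lowest value of 8.21 log2(CPM + 1) in macrophage-rich tumours and a highest of 7.62 in macrophage-poor tumours. Cd163 overlapped widely, with 2.68 to 4.84 in macrophage-rich tumours and 1.76 to 4.47 in macrophage-poor tumours.

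**Figure D1:**
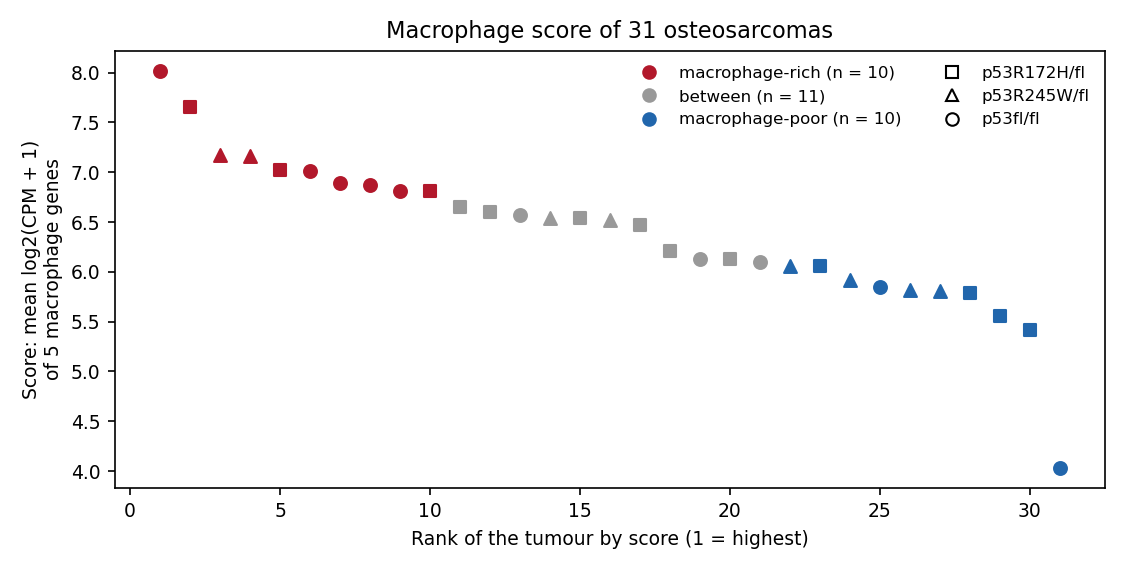
Macrophage score (mean log2(CPM + 1) of 5 genes, y axis) of each of the 31 ranked tumours (x axis, rank from highest to lowest), coloured by group and shaped by genotype. Scores run from 8.02 to 4.03 and the lowest tumour, p53fl/fl tumour 1512, lies apart from the next at 5.42.

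The 20 libraries held 38251440 to 67223388 counts. Trp53 was at 27.1 to 49.9 CPM in p53R172H/fl, 22.1 to 50.7 CPM in p53R245W/fl and 8.77 to 20.1 CPM in p53fl/fl tumours among the 31, so p53fl/fl tumours did not overlap either of the others. Markers of the bone tumour were present in both groups, which the Col1a1 limit of the ranking had fixed in advance for Col1a1. The summed level of 25 osteoblast and mineralising matrix genes was 63010 to 159100 CPM in macrophage-rich and 54730 to 137300 CPM in macrophage-poor tumours, and none of the 24 tested passed the test. Col1a1 is a large part of that sum, at 21140 to 73210 CPM in macrophage-rich and 13230 to 60670 CPM in macrophage-poor tumours. Tumour 1512 stood apart among the macrophage-poor tumours in macrophage, skeletal muscle and fibroblast genes. Xist, transcribed from the inactive X chromosome, and the Y-linked Ddx3y were both over 30 CPM in 2 macrophage-rich tumours (627 and 1522) and 1 macrophage-poor tumour (1512). Ddx3y was over 1 CPM in 4 tumours of each group. Library sets, read from the prefixes of the column names, held 7 macrophage-rich and 5 macrophage-poor tumours (FM, FNM, WFM and WFNM) and 3 macrophage-rich and 5 macrophage-poor tumours (R553).

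Beyond the score genes, macrophage-rich tumours had higher RNA levels of 89 genes, 20 of them in lists of macrophage functions, and lower levels of 10. With the 5 score genes left out, edgeR's quasi-likelihood test called 99 of 17665 genes at an adjusted p (Benjamini-Hochberg over all genes) under 0.05, which is 0.56%. Of these, 89 were higher (0.504% of all tested) and 10 were lower (0.0566%) in macrophage-rich tumours. Changes are log2 fold changes of macrophage-rich over macrophage-poor tumours throughout. The rises ran from 0.72 to 2.85 on the log2 scale with a median of 1.46, beside a median of -0.05 over all genes, and 76 of the 89 were at least 1. For 87 of the 89, the 11 tumours between the groups had a median between those of the groups. The 89 were picked for a gap between the ends of that ranking, so a median in between was likely in advance. The share over all genes was not computed. In 18 of the 89, every macrophage-rich tumour was above every macrophage-poor one, which was true of 21 genes (0.119%) among all tested and never true in the other direction. Because the groups were cut on expression in these libraries, the test measures association with the score, and genes that vary with the score genes were bound to differ.

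The count moved with single tumours. It was 20 without p53R172H/fl tumour 865, 24 without p53R245W/fl tumour 1813, 32 without p53fl/fl tumour 562 and 38 without p53R245W/fl tumour 941, and 69 without tumour 1512. It was 48 without the 3 tumours that held both Xist and Ddx3y over 30 CPM, an alternative chosen after seeing the data. Tumours 562, 1813 and 1817 also held both, with Xist at 13.9 to 21.5 CPM, and were kept in that fit. All 99 genes kept their sign in each of these fits. The fits share most of the tumours in which the genes were called, so this too was close to fixed in advance. With library set as a further term the count was 96. DESeq2 called 388 genes higher (2.2%) and 209 lower (1.18%), all 99 among them, and the score as a continuous term over the 31 tumours gave 414 higher (2.62%) and 214 lower (1.36%) in edgeR. Within the FM, FNM, WFM and WFNM libraries alone edgeR called 0 genes (2273 at an unadjusted p under 0.05), and within the R553 libraries alone 0 genes (1419 at an unadjusted p under 0.05). The 89 genes that rose had a median change of 1.53 within the first set and 1.20 within the second, with 89 of 89 above 0 in both. Both sets are parts of the 20 tumours in which these genes were called, so the shared sign was close to fixed in advance.

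The smallest p-values belonged to Lpxn, Tlr7, Folr2, C1qc and Dhrs3, and 16 of the 89 rises were called in all 20 fits that each left out 1 tumour. Tlr7, an endosomal receptor for single-stranded RNA, had 18.5, 25 and 45.1 CPM (lowest, median and highest) in macrophage-rich tumours and 2.26, 7.85 and 13.7 CPM in macrophage-poor tumours. Its groups did not overlap, and the change was 2.02 on the log2 scale (SE 0.26, edgeR adjusted p = 0.00212). Lpxn, or leupaxin, an adhesion adaptor of blood cells related to paxillin, had 9.84, 15.7 and 21.0 CPM in macrophage-rich tumours against 1.39, 6.93 and 9.17 CPM in macrophage-poor tumours. It had the smallest p of all genes tested, also without overlap (change 1.69, SE 0.21, edgeR adjusted p = 0.00155). Folr2, the folate receptor beta of tissue macrophages, had 11.8, 19.4 and 27.8 CPM in macrophage-rich tumours against 1.98, 5.18 and 12.4 CPM in macrophage-poor tumours. Here 1 macrophage-rich tumour lay below the highest macrophage-poor one (change 2.03, SE 0.27, edgeR adjusted p = 0.00221). Dhrs3, a retinal reductase that is not particular to phagocytes, had 38.6, 56.8 and 99.1 CPM in macrophage-rich tumours against 13.6, 25.1 and 33.3 CPM in macrophage-poor tumours. Every macrophage-rich tumour exceeded every macrophage-poor one (change 1.31, SE 0.18, edgeR adjusted p = 0.00243).

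**Figure D2:**
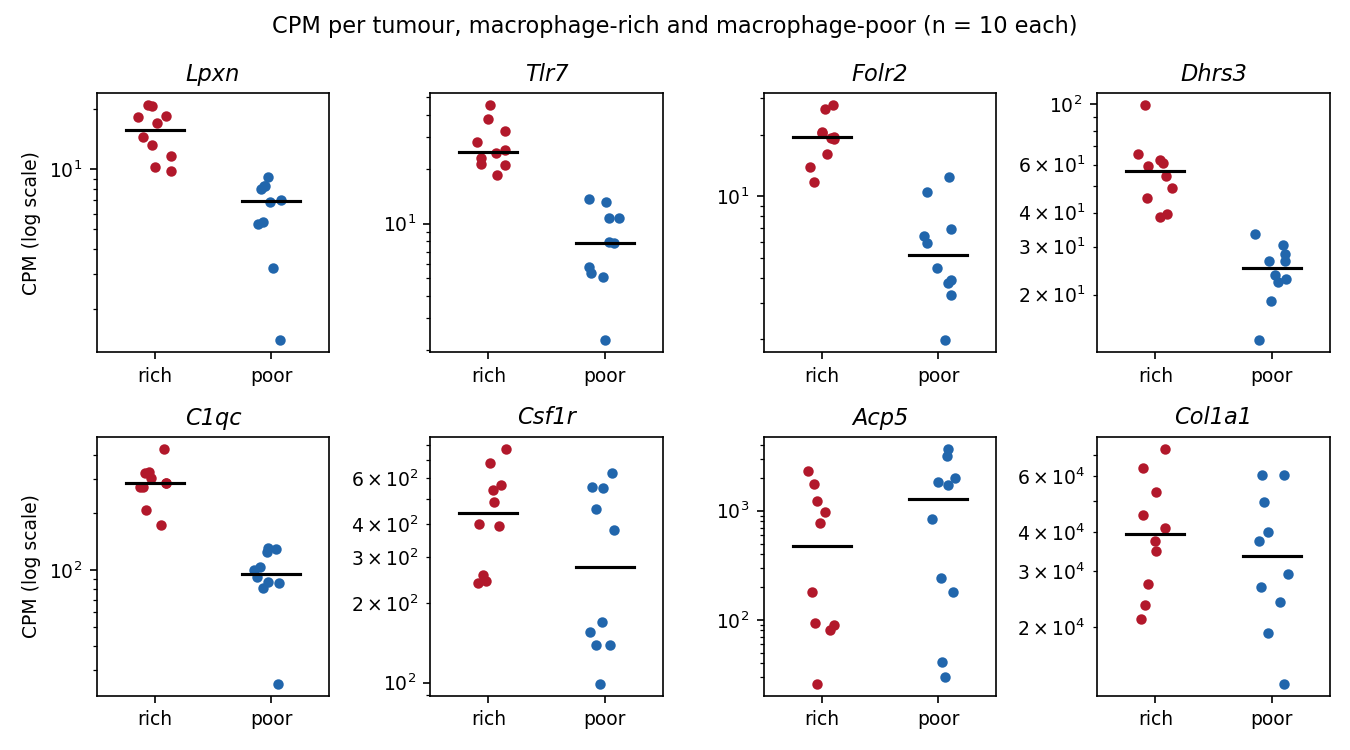
CPM (log scale, each panel with its own range) of 8 genes in each macrophage-rich (left, n = 10) and macrophage-poor (right, n = 10) tumour, with points for tumours and bars for medians. Lpxn, Tlr7, Dhrs3 and C1qc do not overlap between groups and Folr2 does by 1 tumour, while Csf1r, the osteoclast gene Acp5 and Col1a1 overlap widely.

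The macrophage genes beyond the score rose in part. Of 188 genes in 10 lists of macrophage functions, 183 were tested, 20 rose, none fell and 162 had a change above 0, where 44.9% of all genes did. Of 330 tested members of 22 lists of other cells, bone and tumour functions, none was called by edgeR (53 at an unadjusted p under 0.05), against 1 by limma voom with quality weights and 11 by DESeq2. Over all 17665 genes, edgeR called 0.56% and had 2466 at an unadjusted p under 0.05. On the same genes limma voom called 123 and DESeq2 597. The counts for these 22 lists lay near those shares, which are also the background for the single lists below. The share of macrophage genes called exceeded the 0.504% of all genes, but most of the 183 did not pass the test. The groups were cut on macrophage genes in these libraries, and the lists were written with earlier results of these data known. That excess was therefore close to fixed in advance.

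**Figure D3:**
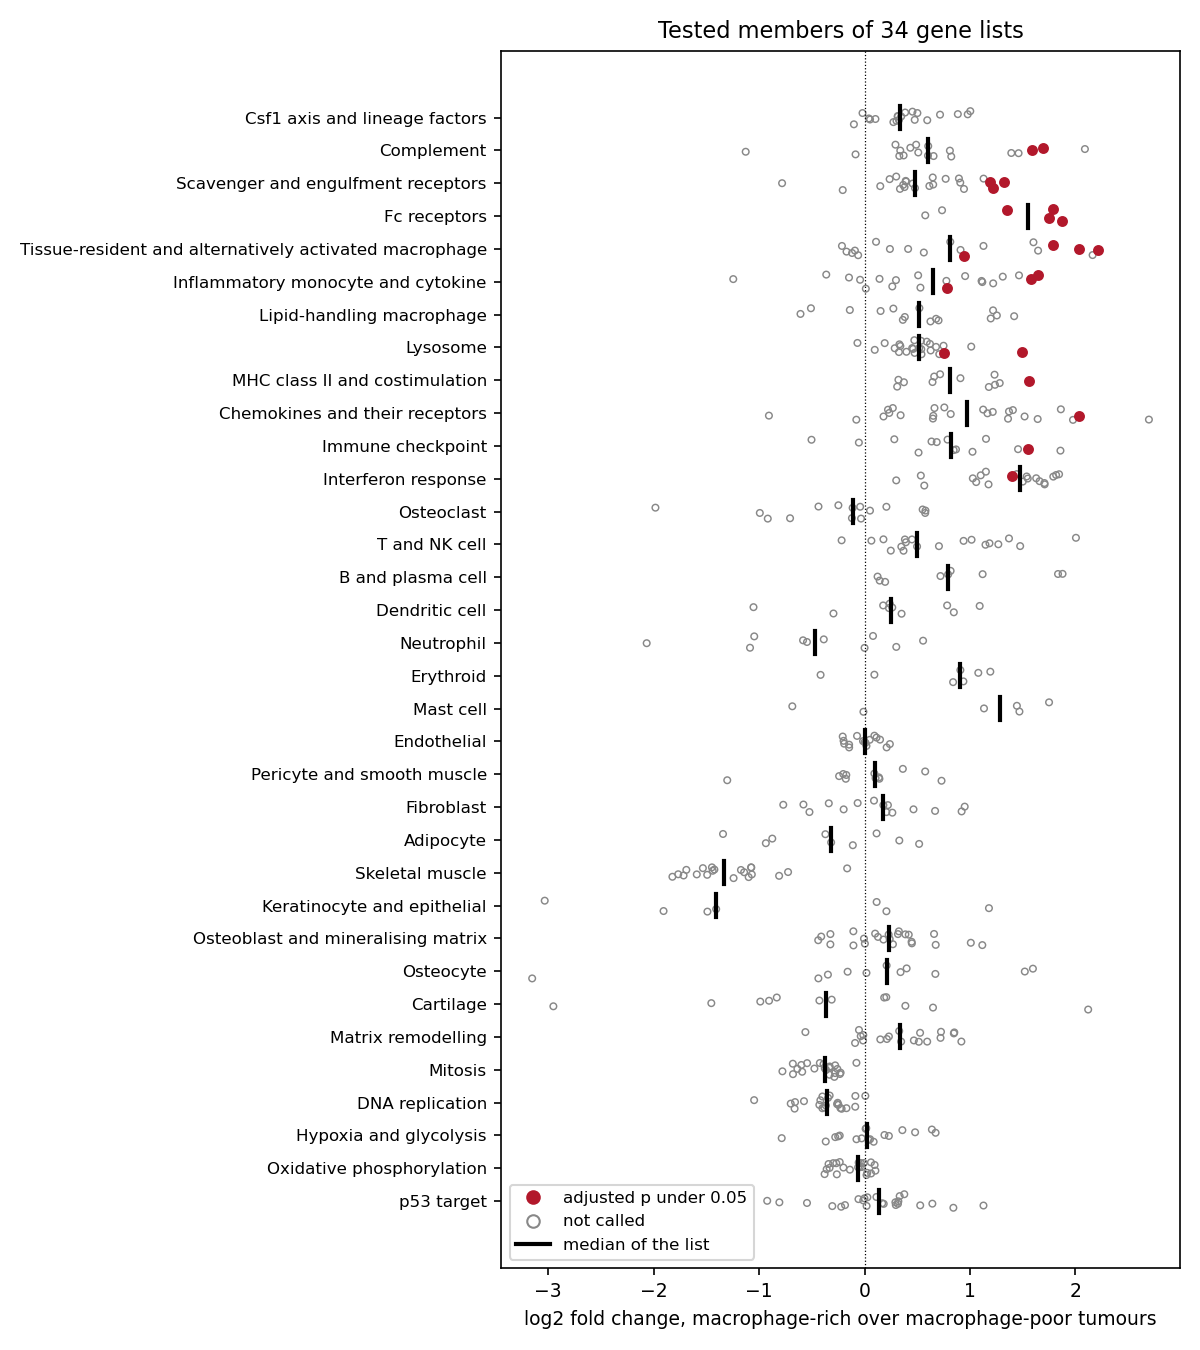
Log2 fold change (macrophage-rich over macrophage-poor tumours, x axis) of each tested member of 34 gene lists (y axis), with filled points for genes at an adjusted p under 0.05, open points for others and a bar at each list's median. Called points lie in macrophage and immune lists and above 0, the Fc receptor and interferon lists have the highest medians of those with called members, and skeletal muscle members all lie below 0.

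Most receptors for antibody rose. Of the 6 Fc receptor genes tested, 4 rose and all 6 were above 0, with a median change of 1.55. Fcgr3, an activating receptor for IgG, had 51.6, 81.2 and 153 CPM in macrophage-rich tumours against 6.80, 29.8 and 38.5 CPM in macrophage-poor tumours. The groups did not overlap (change 1.79, SE 0.26, edgeR adjusted p = 0.0037). Fcgr4, a further activating receptor, rose by 1.87 (SE 0.38, edgeR adjusted p = 0.0288) and Fcgr1, the high-affinity receptor, by 1.75 (SE 0.37, edgeR adjusted p = 0.0365). Fcgr2b, the inhibitory receptor, rose by 1.35 (SE 0.30, edgeR adjusted p = 0.0433). These 3 were called in 13, 7 and 2 of the 20 fits that each left out a tumour, with adjusted p up to 0.104, whereas Fcgr3 was called in all 20.

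The complement list held 2 rises among 19 tested genes, with a median change of 0.60 and 17 above 0. C1qc, the C1q chain that was not part of the score, had 173, 287 and 433 CPM in macrophage-rich tumours against 25.3, 95.7 and 131 CPM in macrophage-poor tumours. Its groups did not overlap (change 1.69, SE 0.24, edgeR adjusted p = 0.00243). C1qc lies beside C1qa and C1qb and encodes a chain of the same protein, so it is no independent readout of the score. C3ar1, the receptor for the complement fragment C3a, rose by 1.59 (SE 0.34, edgeR adjusted p = 0.0403), a call kept in 3 of the 20 fits that each left out a tumour. C3, the central complement protein, had 26.3, 95.5 and 134 CPM in macrophage-rich tumours against 8.41, 37 and 149 CPM in macrophage-poor tumours and was not called (change 0.43, SE 0.52, edgeR adjusted p = 0.764).

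Among scavenger and engulfment receptors, 3 of 23 tested genes rose, and the list's median change was 0.48. Trem2, a lipid-binding receptor of phagocytes, had 16, 39.4 and 47.9 CPM in macrophage-rich tumours against 9.39, 15.1 and 23.8 CPM in macrophage-poor tumours. In 9 of 10 macrophage-rich tumours it exceeded all macrophage-poor ones, and the call held in all 20 fits that each left out a tumour (change 1.32, SE 0.20, edgeR adjusted p = 0.0058). Stab1, an endocytic receptor also found on sinusoidal endothelium, had 289 to 940 CPM in macrophage-rich tumours and 79.2 to 279 CPM in macrophage-poor tumours (change 1.22, SE 0.26, edgeR adjusted p = 0.0389). Msr1, the class A scavenger receptor, rose by 1.19 (SE 0.27, edgeR adjusted p = 0.0489). Neither overlapped between the groups, yet both lost the call in most of the 20 fits, being kept in 5 and 2. The engulfment receptors Mertk and Axl were not called, with changes of 0.39 (SE 0.15, edgeR adjusted p = 0.246) and 0.46 (SE 0.22, edgeR adjusted p = 0.362).

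The tissue-resident and alternatively activated list held 4 rises among 19 tested genes, with a median change of 0.81. Beside Folr2, these were Cbr2, a carbonyl reductase, with 5.81, 39.1 and 57.5 CPM in macrophage-rich tumours against 2.76, 7.23 and 26.6 CPM in macrophage-poor tumours. Its groups overlapped, and it rose by 2.21 (SE 0.43, edgeR adjusted p = 0.0246). Pf4, a chemokine also made by megakaryocytes, rose by 1.78 (SE 0.35, edgeR adjusted p = 0.0241), and Selenop, a selenium carrier, by 0.95 (SE 0.20, edgeR adjusted p = 0.0389). These 3 were called in 14, 16 and 7 of the 20 fits that each left out a tumour. Arg1 and Retnla, textbook genes of alternative activation, were low in both groups and not called. Arg1 had a median of 2.24 CPM in macrophage-rich and 0.515 CPM in macrophage-poor tumours (edgeR adjusted p = 0.837). Retnla had 0.362 CPM in macrophage-rich and 0.208 CPM in macrophage-poor tumours (edgeR adjusted p = 0.903).

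Of 20 inflammatory monocyte and cytokine genes tested, 3 rose and the median change was 0.65. Cd14, a coreceptor for bacterial lipopolysaccharide, had 11.7, 22.9 and 49.4 CPM in macrophage-rich tumours against 3.22, 9.08 and 17.1 CPM in macrophage-poor tumours. Of the macrophage-rich tumours, 7 lay above all macrophage-poor ones, and the call held in all 20 fits that each left out a tumour (change 1.58, SE 0.28, edgeR adjusted p = 0.0154). Tnf, the tumour necrosis factor cytokine, was scarce, with 1.69, 2.97 and 7.67 CPM in macrophage-rich tumours against 0.486, 1.34 and 1.94 CPM in macrophage-poor tumours. It rose by 1.64 (SE 0.29, edgeR adjusted p = 0.0146) and was called in 19 of the 20 fits that each left out a tumour, the exception being the fit without tumour 1813 (adjusted p = 0.0515). Tlr4, the lipopolysaccharide receptor, rose by 0.78 (SE 0.17, edgeR adjusted p = 0.0462) and was called in 2 of the 20 fits. Il1b and Nos2, which mark inflammatory activation, were not called, with changes of 0.30 (SE 0.55, edgeR adjusted p = 0.858) and -0.15 (SE 0.51, edgeR adjusted p = 0.932).

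Of 25 lysosomal genes tested, 2 rose, and 24 were above 0 with a median change of 0.52, where 44.9% of all genes were above 0. Ctss, the cathepsin S protease, had 183, 282 and 353 CPM in macrophage-rich tumours against 16, 95.8 and 210 CPM in macrophage-poor tumours (change 1.49, SE 0.29, edgeR adjusted p = 0.0241). Grn, which encodes progranulin, had 328 to 428 CPM in macrophage-rich and 150 to 321 CPM in macrophage-poor tumours, without overlap (change 0.75, SE 0.16, edgeR adjusted p = 0.0331). Ctss was called in 15 and Grn in 12 of the 20 fits that each left out a tumour. Among 12 genes of MHC class II and costimulation, all were above 0 with a median of 0.81, and only Cd86, a ligand that costimulates T cells, was called. Cd86 had 9.35 to 19.4 CPM in macrophage-rich and 0.603 to 7.39 CPM in macrophage-poor tumours (change 1.56, SE 0.33, edgeR adjusted p = 0.0365), and the call held in 8 of the 20 fits. Cd74, the invariant chain of class II, had 195, 400 and 768 CPM in macrophage-rich against 16.9, 197 and 416 CPM in macrophage-poor tumours and was not called (change 1.28, SE 0.43, edgeR adjusted p = 0.192).

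Among 24 chemokines and receptors only Ccl12, a monocyte attractant, was called, and the list's median change was 0.97. Ccl12 had 4.33, 14.2 and 28.2 CPM in macrophage-rich tumours against 0.687, 3.54 and 7.64 CPM in macrophage-poor tumours. In 9 of 10 macrophage-rich tumours it was above all macrophage-poor ones (change 2.04, SE 0.40, edgeR adjusted p = 0.0255, called in 15 of the 20 fits). Siglec1, a sialic acid receptor of macrophages in the list of immune checkpoint genes, rose by 1.55 (SE 0.29, edgeR adjusted p = 0.0196), the only call among 14 tested. Cd274, which encodes the checkpoint ligand PD-L1, had 3.18 to 12.3 CPM in macrophage-rich and 1.52 to 6.98 CPM in macrophage-poor tumours and was not called (change 0.64, SE 0.32, edgeR adjusted p = 0.376).

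Lineage and lipid-handling genes of macrophages did not pass the test. None of the 20 Csf1 axis and lineage genes was called by edgeR (4 at an unadjusted p under 0.05, and 2 called by DESeq2), and their median change was 0.34 with 18 above 0. Csf1r, the receptor for macrophage growth factor, had 239, 443 and 774 CPM in macrophage-rich tumours against 99.0, 275 and 628 CPM in macrophage-poor tumours. These ranges overlapped widely (change 0.88, SE 0.34, edgeR adjusted p = 0.25). Spi1 had 21.8, 42.8 and 76.8 CPM in macrophage-rich tumours against 11.2, 35.2 and 103 CPM in macrophage-poor tumours, where the highest of the 20 tumours was macrophage-poor (change 0.50, SE 0.34, edgeR adjusted p = 0.541). Irf8, a transcription factor of the monocyte lineage, had 16.5 to 48.3 CPM in macrophage-rich and 4.77 to 26.0 CPM in macrophage-poor tumours (change 1.003, SE 0.26, edgeR adjusted p = 0.088). Of 15 lipid-handling genes none was called by edgeR (9 at an unadjusted p under 0.05, and 2 called by DESeq2) and 12 were above 0, with a median of 0.52. Apoe, the apolipoprotein of lipid-laden macrophages, had 636 to 1462 CPM in macrophage-rich and 88.5 to 929 CPM in macrophage-poor tumours (change 1.20, SE 0.30, edgeR adjusted p = 0.0773).

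Osteoclast genes, which the same precursor can turn on and which share Csf1r and Spi1 with macrophages, did not rise with the score. None of 15 was called by edgeR (2 at an unadjusted p under 0.05, and 1 called by DESeq2), 5 were above 0 and the median change was -0.11. Of all 17665 genes, 2466 had an unadjusted p under 0.05. In the R1002- libraries, described below, 1 of 14 tested had a slope on the score above 0, where 47% of all genes did. The median slope of the 14 was -0.34. Their summed level was 809, 2280 and 9107 CPM in macrophage-rich tumours against 798, 6182 and 16580 CPM in macrophage-poor tumours, a range of over 10-fold within each group. Acp5, the tartrate-resistant acid phosphatase of osteoclasts, had 25.9, 473 and 2319 CPM in macrophage-rich tumours against 30.1, 1275 and 3699 CPM in macrophage-poor tumours (change -0.12, SE 0.83, edgeR adjusted p = 0.969). Ctsk, the collagen-degrading cathepsin K, had a change of 0.21 (SE 0.68, edgeR adjusted p = 0.929). The standard errors of both are wide, so sizeable differences in either direction were not excluded by these 20 tumours.

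Further families were seen among the rises and were picked with their values in view. Of 11 tested Toll-like receptor genes, 4 rose and all 11 were above 0, with a median of 1.09. Tlr8, which lies beside Tlr7 on chromosome X, had 14.8, 20.6 and 51.1 CPM in macrophage-rich tumours against 2.46, 7.28 and 11.8 CPM in macrophage-poor tumours. The groups did not overlap (change 1.74, SE 0.29, edgeR adjusted p = 0.0084). Tlr13, the mouse receptor for bacterial ribosomal RNA, rose by 1.69 (SE 0.28, edgeR adjusted p = 0.0084). Unc93b1, the chaperone that carries the nucleic acid sensing receptors to endosomes, had 81.8, 130 and 186 CPM in macrophage-rich tumours against 27.8, 69.7 and 77.2 CPM in macrophage-poor tumours. It too did not overlap (change 1.10, SE 0.18, edgeR adjusted p = 0.0084), and Tlr7, Tlr8, Tlr13 and Unc93b1 were all called in all 20 fits that each left out a tumour.

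The Ms4a genes, a cluster of membrane proteins on chromosome 19, held 5 rises among 10 tested, all 10 above 0 with a median of 1.47. Ms4a6b had 38, 57.6 and 101 CPM in macrophage-rich tumours against 3.48, 18.9 and 30.6 CPM in macrophage-poor tumours. The groups did not overlap (change 1.89, SE 0.29, edgeR adjusted p = 0.0058). Ms4a6c also separated the groups, with 36 to 81.4 CPM in macrophage-rich and 3.87 to 32.8 CPM in macrophage-poor tumours (change 1.64, SE 0.28, edgeR adjusted p = 0.011). Ms4a6b, Ms4a6c and Ms4a6d are near copies, and reads could be split among them by the counting. Of 14 receptors for extracellular nucleotides, 3 rose: P2ry12 by 1.79, P2ry6 by 1.503 and P2rx7 by 0.80. Gpr34, a receptor for lysophosphatidylserine, rose by 1.89 (SE 0.40, edgeR adjusted p = 0.0383). Its call was not kept in all 20 fits that each left out a tumour. The edgeR adjusted p ran from 0.0101 without tumour 1512 to 0.0893 without tumour 865. Lyz2, the lysozyme gene used to mark myeloid cells, had 476, 760 and 945 CPM in macrophage-rich tumours against 74.9, 300 and 528 CPM in macrophage-poor tumours. It rose by 1.36 (SE 0.26, edgeR adjusted p = 0.0233).

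Genes induced by interferon, which signals antiviral defence, leaned the same way without passing the test in most cases. All 20 tested were above 0 with a median change of 1.47, and 1 was called by edgeR (9 by DESeq2), whereas 16 had an unadjusted p under 0.05 (6.58% of all genes did so with a higher level). Ifit2 had 18.5, 33.8 and 66.1 CPM in macrophage-rich tumours against 5.43, 14.7 and 22.5 CPM in macrophage-poor tumours (change 1.39, SE 0.31, edgeR adjusted p = 0.0467), and the call held in 3 of the 20 fits that each left out a tumour. Isg15, a ubiquitin-like interferon product, had 1.86, 18 and 94.0 CPM in macrophage-rich tumours against 0.754, 6.59 and 19.6 CPM in macrophage-poor tumours (change 1.71, SE 0.63, edgeR adjusted p = 0.229). Ifi27l2a, an interferon-inducible gene outside that list, had 9.62, 28.9 and 60.2 CPM in macrophage-rich tumours against 0.436, 8.82 and 19.4 CPM in macrophage-poor tumours. It rose by 2.03 (SE 0.45, edgeR adjusted p = 0.0467), called in 4 of the 20 fits.

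Lymphocyte markers such as Cd3e were scarce in both groups. The 20 T and NK cell genes summed to 20.2, 27.7 and 64.5 CPM in macrophage-rich tumours against 15.4, 27.7 and 52.2 CPM in macrophage-poor tumours. Cd28 and Cd4 were a large part of that sum in some tumours. Cd28 reached 36.1 CPM in macrophage-poor tumour 383, and Cd4 reached 30.2 CPM in macrophage-rich tumour 1979. Of 19 genes of the list tested, none was called by edgeR (3 at an unadjusted p under 0.05, and 1 called by DESeq2) and 18 were above 0, with a median of 0.50. Cd3e, a defining chain of the T cell receptor complex, had medians of 0.241 CPM in macrophage-rich and 0.304 CPM in macrophage-poor tumours. With the mean level of these genes as a term, edgeR called 19 genes, 17 higher (0.0962% of those tested) and 2 lower (0.0113%), of which 16 and 2 were among the 99. Tlr7 (change 2.002, adjusted p = 0.00884), Lpxn (change 1.58, adjusted p = 0.00884), C1qc (change 1.53, adjusted p = 0.00897) and Folr2 (change 2.03, adjusted p = 0.00897) were called in that edgeR fit. The 9 tested B and plasma cell genes were all above 0, with a median of 0.79 and none called.

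Of 20 skeletal muscle genes, none was called by edgeR (7 at an unadjusted p under 0.05, and 1 called by DESeq2), and all 20 had a change below 0, with a median of -1.33, where 44.9% of all genes were above 0. They summed to 417, 1494 and 3335 CPM in macrophage-rich tumours against 112, 3079 and 11350 CPM in macrophage-poor tumours. These ranges overlapped, and the lowest sum of all was in a macrophage-poor tumour. With their mean level as a term edgeR called 280 genes, 251 higher and 29 lower, which included all 89 rises. Mitosis and DNA replication genes were also below 0 in 22 of 22 and 21 of 22 cases, with medians of -0.37 and -0.36, and none was called by edgeR (8 and 10 at an unadjusted p under 0.05, and 1 each called by DESeq2). Mki67, a marker of cycling cells, had 143, 262 and 394 CPM in macrophage-rich tumours against 214, 276 and 746 CPM in macrophage-poor tumours (change -0.64, SE 0.24, edgeR adjusted p = 0.228). Endothelial genes were centred on 0 (median 0.01 over 16 genes, none called). The part of muscle, lymphocyte or cycling cell content in the other results was not tested beyond these fits.

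Of the 10 genes that fell, several were scarce, and for some of them single macrophage-poor tumours held the highest values by far. Dlgap3, a synaptic scaffold gene, had 0.0323, 0.410 and 0.633 CPM in macrophage-rich tumours against 0.505, 0.805 and 26.8 CPM in macrophage-poor tumours. The highest was tumour 562, with the next at 2.73 CPM, and the change was -3.22 (SE 0.69, edgeR adjusted p = 0.0385, called in 5 of the 20 fits that each left out a tumour). Bche, which encodes butyrylcholinesterase, had 0.199 CPM as median in macrophage-rich and 1.53 CPM in macrophage-poor tumours, with 25.5 CPM in tumour 941 (change -3.99, SE 0.90, edgeR adjusted p = 0.0478). Wwc1, which encodes the Hippo pathway protein KIBRA, had medians of 0.253 CPM in macrophage-rich and 3.68 CPM in macrophage-poor tumours (change -3.35, SE 0.73, edgeR adjusted p = 0.0423). Bche and Wwc1 were each called in 4 of the 20 fits. Arpp21, which encodes a phosphoprotein regulated by cyclic AMP, had medians of 0.516 CPM in macrophage-rich and 2.30 CPM in macrophage-poor tumours, with the highest value of 25 CPM in tumour 1512 (change -2.86, SE 0.65, edgeR adjusted p = 0.0489, called in 3 of the 20 fits). Tspan7, a tetraspanin membrane protein gene, had 3.84, 9.61 and 14.7 CPM in macrophage-rich tumours against 8.12, 26.3 and 56.7 CPM in macrophage-poor tumours. Its groups overlapped (change -1.53, SE 0.35, edgeR adjusted p = 0.0489, called in 2 of the 20 fits). Ash1l, a histone methyltransferase and the fall with the highest level, had 106, 175 and 234 CPM in macrophage-rich tumours against 209, 254 and 333 CPM in macrophage-poor tumours. The ranges overlapped between 209 and 234 CPM (change -0.69, SE 0.13, edgeR adjusted p = 0.0241, called in 14 of the 20 fits). None of the 10 was in any of the 34 lists.

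Libraries that the ranking did not use gave a further view of the same genes. Of the 18 libraries with the prefix R1002-, 16 met the Col1a1 limit, and the score was fitted in them as a continuous term beside genotype. For matching, each gene's mean within library set and genotype was subtracted from its log2(CPM + 1), so the correlations are not of raw levels. Each R1002- library matched 1 of the other libraries of its own genotype better than all others across 14957 genes (Spearman correlation of 0.578 to 0.903, against at most 0.389 for the second best). They may be further libraries of the same tumours, and 3 of the best matches were macrophage-rich and 6 macrophage-poor, so they are not treated as independent tumours. Of the 89 rises, 88 were tested there and 88 had a slope above 0 (47% of all genes did), with a median of 0.78 log2 units per score unit beside -0.03 over all genes. At an unadjusted p under 0.05, 73 of the 88 were higher, as were 5.44% of all genes. After adjustment edgeR called 9 of 14163 genes (0.0635%), all higher, and 7 of them were among the 89, namely Fcgr3, Cd14, Ms4a6b, C1qc, Tlr8, Tlr7 and Lyz2. The other two were Cybb, a subunit of the phagocyte oxidase (slope 1.09, SE 0.15, adjusted p = 0.00683), and Tnfsf13b, the B cell survival factor BAFF (slope 2.23, SE 0.34, adjusted p = 0.0114). For Tlr7 the slope was 1.26 (SE 0.21, edgeR adjusted p = 0.0209) and for Cd14 1.44 (SE 0.20, edgeR adjusted p = 0.00683). Lpxn and Folr2 had slopes of 0.79 and 1.04 and were not called there (edgeR adjusted p = 0.227 for both). Of the 10 falls 4 were tested, and 4 of 4 had a slope below 0. If the R1002- libraries are of the same tumours, these shared signs were close to fixed in advance.

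**Figure D4:**
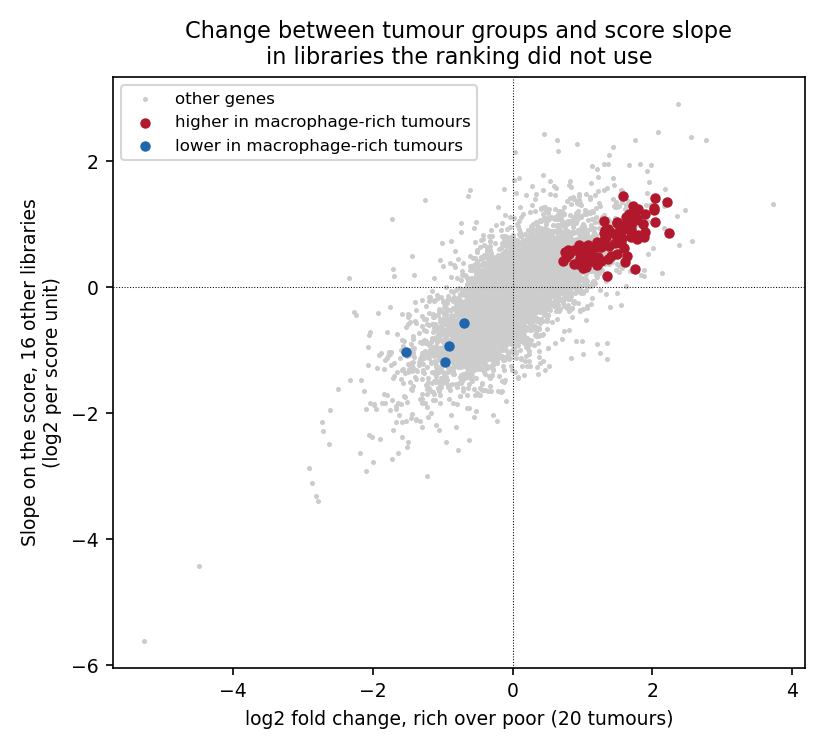
Log2 fold change between macrophage-rich and macrophage-poor tumours (x axis) against the slope on the score in 16 R1002- libraries (y axis, log2 units per score unit), 1 point per gene tested in both. All 88 genes that rose lie above 0 on both axes and the 4 tested genes that fell lie below 0 on both.

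The relation of genes to the score was not found to differ between genotypes. Over the 31 ranked tumours, edgeR called 0 of 15785 genes for a slope on the score that differs by genotype, with 1118 at an unadjusted p under 0.05. limma voom with quality weights also called 0, with 1705 at an unadjusted p under 0.05. With 8 to 13 tumours a genotype, differences in slope may have gone undetected.

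Promoter sequences were set beside the rises because PU.1 binds DNA with a GGAA core. The letters GAGGAAGT, a common form of its site, were searched on both strands (as ACTTCCTC on the other) from 250 bases before to 50 bases after the start of each gene in the RefSeq promoter table of build GRCm38.p6. Of the 69 rising genes with an entry, 13 held a match (18.8%), as did 382 of the 11737 tested genes with an entry (3.25%) and 3.28% of all 27025 promoters. The 13 were Aim2, C1qc, Cd300ld, Cd53, Ctss, Fcgr4, Hpgds, Pf4, Pld4, Selenop, Slamf9, Slco2b1 and Vav1. Among members of the macrophage lists with an entry, 11 of 134 held it. The search was chosen after the rises were known, and a match is not a binding site.

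The promoters of Folr2, C1qc and Fcgr3, the called members of the macrophage lists with the smallest p that have an entry and may be shown, are printed 5′ to 3′ along the gene's strand from 250 bases before to 20 bases after the RefSeq start. Beside them stand the matches in the other called list members that hold one, with up to 30 bases on each side and none past 20 bases after the start. Capitals mark the matched letters.
Folr2, chr7:101857171-101857440, minus strand: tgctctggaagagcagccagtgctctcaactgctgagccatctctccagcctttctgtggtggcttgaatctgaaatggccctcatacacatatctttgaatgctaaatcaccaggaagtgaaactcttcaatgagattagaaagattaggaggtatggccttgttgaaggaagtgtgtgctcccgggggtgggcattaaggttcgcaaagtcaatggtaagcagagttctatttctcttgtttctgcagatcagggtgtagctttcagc
C1qc, chr4:136892895-136893164, minus strand: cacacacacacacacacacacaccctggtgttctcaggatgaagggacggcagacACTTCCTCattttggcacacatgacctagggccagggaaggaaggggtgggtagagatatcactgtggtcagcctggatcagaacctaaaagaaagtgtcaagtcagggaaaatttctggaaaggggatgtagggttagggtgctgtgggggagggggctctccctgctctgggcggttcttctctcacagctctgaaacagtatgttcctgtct
Fcgr3, chr1:171059384-171059653, minus strand: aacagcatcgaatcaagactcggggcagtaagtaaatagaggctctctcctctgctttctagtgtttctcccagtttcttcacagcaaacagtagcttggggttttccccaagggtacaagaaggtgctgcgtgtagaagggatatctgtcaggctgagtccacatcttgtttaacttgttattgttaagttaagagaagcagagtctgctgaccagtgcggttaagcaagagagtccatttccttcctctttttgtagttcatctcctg
Pf4, chr5:90772395-90772454, plus strand: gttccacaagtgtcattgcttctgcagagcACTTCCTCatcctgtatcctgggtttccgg
Ctss, chr3:95526754-95526805, plus strand: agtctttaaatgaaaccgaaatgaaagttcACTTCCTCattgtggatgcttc
Fcgr4, chr1:171018872-171018939, plus strand: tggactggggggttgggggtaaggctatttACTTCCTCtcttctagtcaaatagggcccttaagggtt
Selenop, chr15:3270556-3270623, plus strand: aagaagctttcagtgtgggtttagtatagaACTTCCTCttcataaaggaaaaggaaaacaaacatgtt

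In each of these matches the letters read ACTTCCTC along the gene's strand. Counted from the start, the first base of the match lay at -2 in Ctss, -10 in Pf4, -24 in Fcgr4, -181 in Selenop and -195 in C1qc. These 5 genes rose by 0.95 (Selenop) to 1.87 (Fcgr4) on the log2 scale. Folr2 and Fcgr3 held no match in this window and rose by 2.03 and 1.79. The RefSeq start used for Fcgr3 lies inside the gene as GENCODE draws it, so its window is that of 1 transcript.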

How the data were processed

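Whole-number read counts of 20730 genes in each of 52 libraries were deposited, without normalization by the authors. Reads were aligned with STAR to GRCm38, per the submitters' processing notes; no version or counting program is named. Libraries were stranded mRNA, per the labels. Identifiers were joined to GENCODE M21, which gave 20668 a symbol and left 62 without one. No gene had a total under 260, so low genes had been removed upstream.

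edgeR 4.0.16 (R 4.3.3) was run with TMM library sizes, filterByExpr (minimum count 10), genotype as a term and robust quasi-likelihood F tests. The 5 score genes were dropped before Benjamini-Hochberg adjustment over all genes, and changes were called at an adjusted p under 0.05. CPM values use TMM library sizes, except in the score. Standard errors are the absolute change over the square root of F. The scripts were tested on simulated data. p-values measure the spread between tumours, each labelled with a tumour number of its own. DESeq2 1.42.0, limma 3.58.1 and other settings were alternatives.

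Named genes were the 8 largest rises and falls and the 5 smallest p-values among called genes of at least 1 CPM on average with a regular symbol, with called or leading members of each list. Genes outside that rule were Tlr8, Tlr13, Unc93b1, Ms4a6c, Ms4a6d, P2ry12, P2ry6, P2rx7, Lyz2, Cybb, Tnfsf13b, Spi1, Irf8, C3, Mertk, Axl, Arg1, Retnla, Il1b, Nos2, Apoe, Cd74, Cd274, Isg15 and holders of the promoter match, picked with values in view. The members, the 34 lists and the tests were chosen with earlier results of these data known.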

Additional observations from a re-analysis of the deposited data

Results flagged for a closer look

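A tumour was picked out where its gap to the nearest other, on the log2 scale, was above Dixon's critical share of its group's range. Chance does this in about 1 in 20 groups. Of 220 groups of 10 tumours examined, 32 such tumours were found, many of them the same tumour, and the groups of different genes share their tumours.

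Macrophage-poor tumour 1512, of the p53fl/fl genotype, was picked out as the lowest of its group 21 times, for the score and 20 genes. Its macrophage score was 4.03, with the next tumour at 5.42. It was also lowest for genes that rose in macrophage-rich tumours, with 25.3 CPM of C1qc, 3 of C3ar1, 0.687 of Ccl12, 3.22 of Cd14, 0.603 of Cd86, 16 of Ctss, 79.2 of Stab1, 1.19 of Fcgr1, 6.80 of Fcgr3, 0.469 of Fcgr4, 0.235 of Gpr34, 0.436 of Ifi27l2a and 3.48 of Ms4a6b. The same tumour was lowest for skeletal muscle genes, with 1.99 CPM of Acta1, 0.352 of Ckm, 1.62 of Mylpf, 7.82 of Neb and 71.9 of Ttn, and for the fibroblast genes Dpt (0.0335 CPM) and Pi16 (0.101 CPM). These genes were thus low together in it.

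Tumour 1832, also macrophage-poor, had the highest neutrophil genes of its group, with 79.0 CPM of Ngp, 100 of S100a8 and 144 of S100a9, where the next tumours had 0.987, 2.02 and 3.53 CPM. Other macrophage-poor tumours that stood high were 562 for Dlgap3 (26.8 CPM), 622 for Pdgfra (2120 CPM) and 941 for Trp63 (11.4 CPM). Among macrophage-rich tumours, 1817 was lowest for Dlgap3 (0.0323 CPM) and Kit (3.89 CPM), 627 for Gpr34 (3.24 CPM) and 1979 for Pi16 (0.735 CPM), and 1606 was highest for Postn (16800 CPM, with the next at 1960 CPM).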

How the results depend on the processing

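The number of called genes, 99 in the comparison as reported, depended on the test and on single tumours. It was 597 (388 higher, 209 lower) with DESeq2, 280 with the skeletal muscle list as a term, 19 with the T and NK cell list as a term, 15 with the 7 highest against the 7 lowest scores, 39 with all 31 tumours split at the middle score, 628 with the score as a continuous term over 31 tumours and 9 with that term over the R1002- libraries. It ranged from 20 to 110 when 1 tumour was left out at a time, and fell below 66 without tumours 865 (20), 1813 (24), 562 (32), 941 (38), 383 (48), 627 (50), 1827 (56), 1575 (57), 1979 (59), 1441 (60) and 5798 (60). Chosen after seeing the data, the fits of the FM, FNM, WFM and WFNM libraries and of the R553 libraries gave 0 each, and leaving out tumours 1512, 1522 and 627 together gave 48. The number of falls also varied. Falls made up 35% of calls (209) with DESeq2, 34.1% (214) with the continuous score and 24.6% (32) with no filter, against 10.1% (10) as reported, and were 3 each with the score from TMM CPM (3.61%) and without Cd163 and Mrc1 (3.45%), where 2 and 1 of the 10 were among them. With limma voom, RLE factors, no filter, a minimum count of 50, no genotype term, library set as a term and other scores the count lay within 1.5 times of 99. The genes called were not all the same. Of the 89 rises, 61 were shared without Cd163 and Mrc1 in the score and 62 with no genotype term. The score from TMM CPM shared 63, library set as a term 75, and the others 77 to 89. Every called gene kept its sign in every setting in which it was tested, though most settings share the tumours in which the genes were called. No gene's slope differed between genotypes under limma voom, RLE factors or no filter. No paired analysis was possible because the groups compared share no tumour numbers. Depth can limit scarce genes such as Bche and Dlgap3, which was not tested.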
